A study of Mus musculus with 12 samples.

Results

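The 10 heat shock genes followed here encode chaperones of the cytosol and mitochondria, and they were measured in the mouse melanoma line B16F10 after culture in macrophage-conditioned medium. They were taken from a list by name: Hspa1a, Hspa1b, Hspa8, Hsph1, Dnajb1, Bag3, Hsp90aa1, Hspb1, Hspd1 and Hspe1. All 10 were among the 55487 genes of the count table, and 9 were among the 14591 genes with enough reads to be tested; Hspa1a was not. Bone-marrow-derived macrophages (BMDM) were kept for 24 h in control medium (DMEM, the M0 group), with 20 ng/ml INF-γ, read here as interferon gamma (M1), with 20 ng/ml IL-4 (M2), or in 75% medium from B16F10 cells (B16F10-BMDM, called TAM here, for tumour-associated macrophage). The medium of each was then given to wild-type B16F10 cells for another 24 h, and RNA of the B16F10 cells was sequenced, with 3 libraries in each of the 4 groups. Every group is the same cell line exposed to BMDM medium, and cells without such medium were not analysed here. Separate cultures are not stated for the replicates, and p-values then reflect only the spread among the 12 libraries, which may be technical. Removal of the cytokine or tumour medium before transfer is not stated either.

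Heat shock proteins bind unfolded or newly made proteins and help them to fold. HSP70 proteins work in a cycle driven by ATP, in which J-domain proteins deliver clients and nucleotide exchange factors help release them, while HSP90 acts on later folding stages of clients such as kinases and hormone receptors. In the mitochondrial matrix the HSP60 chamber and its HSP10 lid fold imported proteins. Many of these genes are targets of the transcription factor HSF1, which binds heat shock elements made of short GAA units in alternating orientation, and tumour cells often express them at high levels.

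The element sequences near the gene starts are shown because a pair of the mitochondrial genes share one. RefSeq promoter windows (build GRCm38.p6, from 250 bases before a start to 50 after it) were matched by symbol for 8 of the 10 genes. Both strands were covered in a search for 3 alternating units (GAANNTTCNNGAA or TTCNNGAANNTTC) and for 2 units (GAANNTTC or TTCNNGAA); every 3-unit match also contains 2-unit matches. The 3-unit motif was in 0.603% of the 32851 windows of all genes and in those of Hsph1, Hspd1 and Hspe1. Hspd1 and Hspe1 lie head to head, and 1 stretch, chr1:55088053-55088082, with 2 overlapping 3-unit matches, falls in a window of each. It is upstream of the Hspe1 start and of the Hspd1 start at 55087932, but lies after the other RefSeq start of Hspd1, at 55088243, whose window holds 0 motifs. The stretch is exonic in 1 GENCODE transcript of Hspd1. The Hsph1 match, within chr5:149636279-149636308 on the minus strand, lies after both of its RefSeq starts and is exonic in 4 GENCODE transcripts. Capitals mark the motif in these 30-base stretches, written 5′ to 3′ on each gene's own strand.
Hspe1: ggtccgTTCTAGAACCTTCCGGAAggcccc
Hspd1: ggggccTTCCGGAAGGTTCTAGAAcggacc
Hsph1: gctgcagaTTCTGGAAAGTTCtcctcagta

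The 2-unit motif was in 15.1% of all windows and in 7 of the 8 genes matched. A match is a description of these letters and not evidence of binding.

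Library totals were 15916756 to 20863973 counts. M0 replicate 1 stood apart from the rest. Its correlation with the other M0 libraries (log2 CPM, counts scaled to library size, across genes) was 0.950 to 0.952, against 0.997 between those 2. The share of ribosomal protein genes was 7.95% in it and 3.53% to 4.10% in the other libraries, and the mean exon length weighted by counts was 4545 bases, against 5817 to 6091 elsewhere. Calls in each comparison are therefore counted with all 12 libraries and again without M0 replicate 1. Values of single genes are from all 12 libraries unless stated otherwise, and many are not given again without that library. All 7 melanoma markers passed the filter on low counts. Of 16 macrophage markers 4 passed and 7 were at 0 in every library, Ptprc, Adgre1 and Itgam among them; their summed level was 5.18 to 8.42 CPM in M0, 6.51 to 6.99 in M1, 5.35 to 6.29 in M2 and 3.64 to 4.44 in TAM. Of 8 fibroblast and endothelial markers 2 passed and 3 (Dcn, Cdh5 and Kdr) were at 0, with sums of 18.6 to 23.4 CPM in M0, 13.2 to 17.7 in M1, 22.2 to 25.4 in M2 and 25.8 to 27.6 in TAM. Most of these last sums was Pdgfrb, with means of 18.8 CPM in M0, 14.9 in M1, 21.7 in M2 and 26.0 in TAM. The part of the marker genes in the results was not tested.

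The members moved apart in TAM medium. Hspa8, Dnajb1 and Hsph1, of the cytosolic HSP70 system, fell against M0, and the small heat shock gene Hspb1 and the HSP10 gene Hspe1 rose. By edgeR's quasi-likelihood test with Benjamini-Hochberg adjustment over all genes (called at adjusted p under 0.05), 2 of the 9 tested members were higher and 3 lower in TAM than in M0. Among all genes tested 23.3% were higher, 27.2% lower and 50.5% either, so the members' share called was close to that of all genes. DESeq2 called 3 members higher and 4 lower, beside 3796 genes higher and 4107 lower of 14591. With that library left out all 9 were called, 4 higher and 5 lower, against 33% of genes higher, 33.7% lower and 66.7% either. In M1, 3 members were lower and 0 higher, against 13.5% of genes lower, 12.2% higher and 25.7% either. The counts without M0 replicate 1 were 6 lower and 2 higher, against 22.9%, 24.3% and 47.1%. In M2, 0 members were called either way, and of all genes 0% were higher, 0% lower and 0% either; 2 members and 980 genes had an unadjusted p under 0.05, and DESeq2 called 0 members and 7 genes. On leaving out M0 replicate 1, M2 again had 0 members called, against 0.207% of genes higher, 0.134% lower and 0.341% either, and 6 members had an unadjusted p under 0.05.

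**Figure D1:**
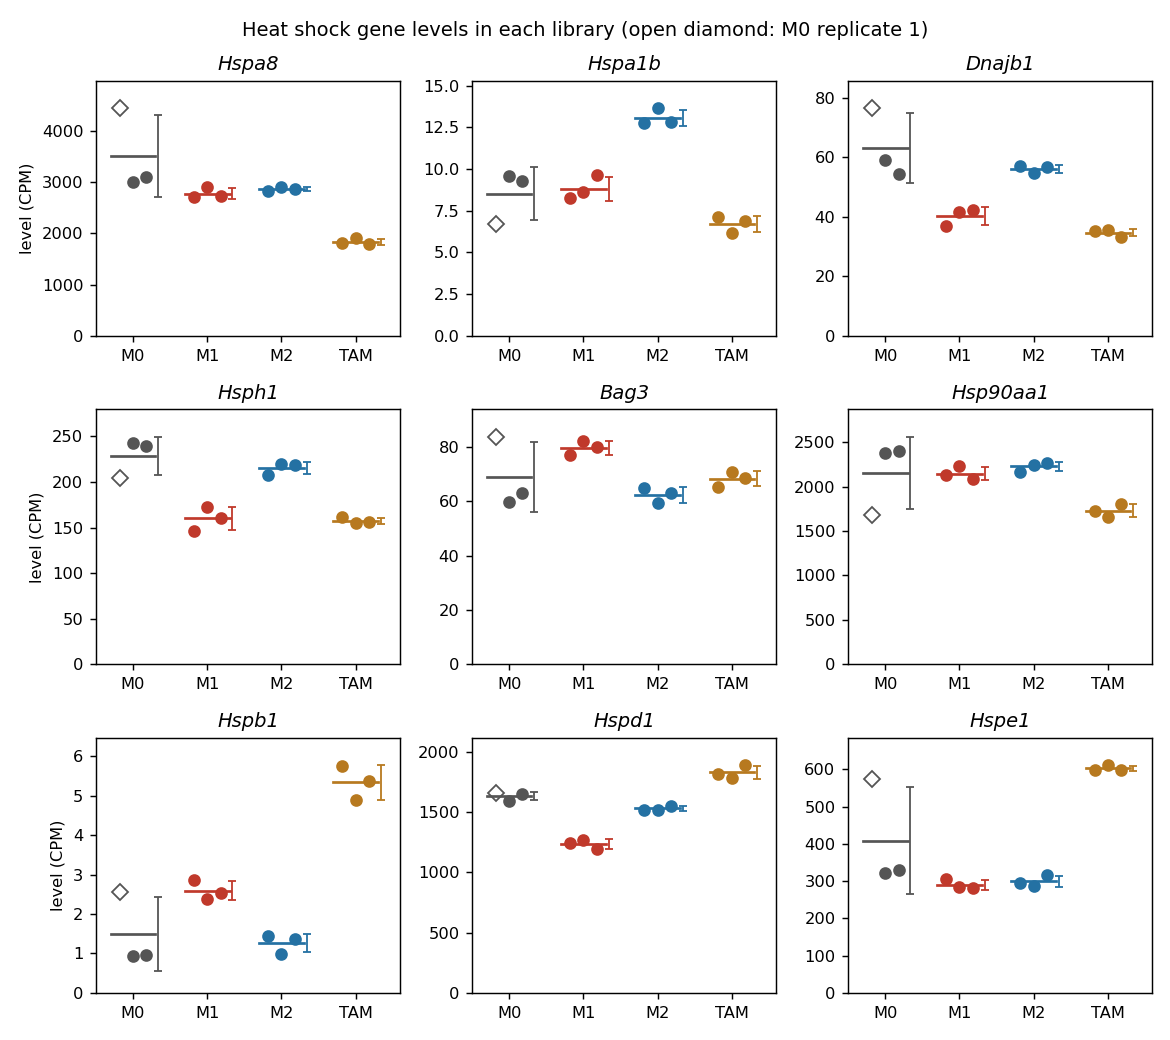
Level of each tested heat shock gene in CPM (linear axis from 0) in the 12 libraries, by the medium given to the B16F10 cells. Points are libraries, the open diamond is M0 replicate 1, lines are group means and bars SD (n = 3). TAM libraries lay below all others for Hspa8 and Dnajb1 and above all others for Hspb1 and Hspe1.

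Hspa8 (chr9:40800984-40810087, plus strand, mm10) encodes HSC70, the HSP70 made in all cells without stress. Its level in M0 was 4433, 3000 and 3087 CPM, in M1 2698, 2898 and 2717, in M2 2824, 2893 and 2870, and in TAM 1807, 1903 and 1789. The 3 TAM libraries were lower than all 9 others, and M0 replicate 1 was far above the rest. TAM was 1.91-fold lower than M0 (log2 change -0.94 ± 0.14 SE, adjusted p = 0.000193), and without M0 replicate 1 the log2 change was -0.74 ± 0.04 (adjusted p = 4.67e-24). M1 and M2 overlapped and did not differ by the test (log2 -0.05, 95% interval -0.31 to 0.22, adjusted p = 0.889). Per kb of exon, Hspa8 was the most abundant member in M0, at 815 ± 187 CPM per kb (SD, n = 3). In TAM it was at 426 ± 14.3, below Hspd1 and close to Hsp90aa1 and Hspe1. Values per kb, here and below, divide by merged exon length. This exceeds the longest coding transcript for Hspa8 (4301 against 2394 bases) and Hspe1 (1474 against 774). The order of these genes in TAM, and the size of ratios per kb between genes, therefore depend on the length used.

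Hspa1a and Hspa1b encode the stress-inducible HSP70 and are near-identical copies. They lie on chromosome 17, 9951 bases apart, at chr17:34969190-34972156 and chr17:34956436-34959238, both on the minus strand, and their coding sequences are 99.43% identical. Of the coding 50-base stretches of Hspa1a 84.71% also occur in other genes, and of Hspa1b 82.18%, whereas 0 of 761 and 0 of 594 stretches of the 3′ UTRs do. The counts differed widely: Hspa1a had 4 reads over the 12 libraries (1 in M1 replicate 1, 2 in TAM replicate 2 and 1 in TAM replicate 3) and Hspa1b 2122. How shared reads were counted is not given in the sources used here, so the split between the copies is uncertain. The promoters are printed because they hardly differ: the 250 bases before the starts, chr17:34972157-34972406 and chr17:34959239-34959488, are identical at 247 of 250 positions, each with a 2-unit motif (in capitals) beginning 104 bases before the start.
Hspa1a: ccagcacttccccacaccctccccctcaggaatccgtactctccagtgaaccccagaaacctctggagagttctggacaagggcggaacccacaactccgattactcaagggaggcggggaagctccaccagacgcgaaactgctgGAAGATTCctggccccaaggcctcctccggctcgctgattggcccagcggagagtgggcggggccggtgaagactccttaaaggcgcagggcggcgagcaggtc
Hspa1b: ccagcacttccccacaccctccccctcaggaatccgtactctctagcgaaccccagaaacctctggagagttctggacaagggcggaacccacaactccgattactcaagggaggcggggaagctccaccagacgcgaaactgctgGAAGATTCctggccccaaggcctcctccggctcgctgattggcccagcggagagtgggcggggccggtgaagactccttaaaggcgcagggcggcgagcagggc

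Hspa1b was measured at 6.69, 9.58 and 9.30 CPM in M0, at 8.23, 8.60 and 9.62 in M1, at 12.8, 13.6 and 12.8 in M2, and at 7.11, 6.18 and 6.88 in TAM. The M2 libraries were above all others, and the TAM libraries were below those of M1 and M2 but on either side of M0 replicate 1. M2 against M0 did not pass (log2 0.62 ± 0.14, unadjusted p = 0.00117, adjusted p = 0.535), nor without M0 replicate 1 (0.48 ± 0.13, adjusted p = 0.0917). TAM was 1.94-fold lower than M2 (log2 -0.96 ± 0.14, adjusted p = 0.000261). Against M0 the TAM difference was -0.34 (adjusted p = 0.0699), and without M0 replicate 1 it was called (-0.49, adjusted p = 0.00109). The counted level of Hspa1b was far below that of its relative Hspa8, at 0.00394 ± 0.00142 of it per kb in M0, 0.00489 ± 0.000476 in M1, 0.00700 ± 0.000204 in M2 and 0.00564 ± 0.000573 in TAM. Reads shared with Hspa1a may be missing from the Hspa1b count, so these ratios are approximate.

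Dnajb1 (chr8:83608193-83612653), the J-domain protein of HSP40 type that stimulates the HSP70 ATPase, read 76.5, 59.0 and 54.3 CPM in M0, 36.9, 41.8 and 42.3 in M1, 57.0, 54.7 and 56.9 in M2, and 35.2, 35.7 and 33.4 in TAM. All 6 libraries of M1 and TAM were below all 6 of M0 and M2. The fall was 1.82-fold in TAM (log2 -0.86 ± 0.12, adjusted p = 0.000177) and 1.57-fold in M1 (-0.65 ± 0.12, adjusted p = 0.00306). The changes without M0 replicate 1 were -0.71 ± 0.07 and -0.45 ± 0.07. M1 and TAM did not overlap for Dnajb1, but their difference did not pass (log2 -0.21, 95% interval -0.46 to 0.03, adjusted p = 0.188). It was called without M0 replicate 1 (-0.26, adjusted p = 0.000292) and in a fit to the 2 groups alone (-0.21, adjusted p = 0.00343). That 2-group fit did not call the M1 difference from M0 (-0.60, adjusted p = 0.0822).

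Hsph1 (chr5:149614287-149636376) encodes HSP110, a nucleotide exchange factor of HSP70 that also helps dissolve aggregates. Its M0 libraries were at 204.9, 242.3 and 239.1 CPM, M1 at 146.5, 172.4 and 161.0, M2 at 207.5, 219.2 and 219.0, and TAM at 161.0, 155.0 and 155.9. M1 and TAM overlapped each other and lay below every M0 and M2 library. Hsph1 fell by 0.54 ± 0.10 on the log2 scale in TAM (adjusted p = 0.000828) and by 0.52 ± 0.10 in M1 (adjusted p = 0.00286), where a fit to M0 and M1 alone made no call (-0.47, adjusted p = 0.0994). Without M0 replicate 1 the log2 changes of Hsph1 were -0.62 ± 0.05 in TAM and -0.55 ± 0.05 in M1. Unlike Hspa8, it was low and not high in M0 replicate 1, at 0.851 of the other M0 libraries.

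Bag3 (chr7:128523616-128546981), an exchange factor that directs HSP70 clients to selective autophagy, was at 83.8, 59.9 and 63.1 CPM in M0, 77.1, 82.1 and 80.0 in M1, 65.0, 59.2 and 63.3 in M2, and 65.5, 70.9 and 68.5 in TAM. The M1 libraries were above those of M2 and TAM and overlapped M0 only through M0 replicate 1. With all 12 libraries edgeR called no Bag3 difference, while DESeq2 called Bag3 higher in M1 than in M2 (0.38, adjusted p = 0.0235); in edgeR M1 against M0 gave a log2 difference of 0.21 ± 0.12 (adjusted p = 0.218). Calls of higher appeared without M0 replicate 1 in M1 (0.41 ± 0.06, adjusted p = 2.39e-08) and in TAM (0.15 ± 0.06, adjusted p = 0.0228).

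Hsp90aa1 (chr12:110690605-110702728, minus strand) encodes HSP90 alpha, the stress-responsive form of cytosolic HSP90. Levels were 1683, 2376 and 2398 CPM in M0, 2125, 2228 and 2085 in M1, 2169, 2243 and 2266 in M2, and 1727, 1659 and 1804 in TAM. TAM lay below M1, M2 and M0 replicates 2 and 3, and overlapped M0 replicate 1. The TAM difference from M0 missed the threshold in edgeR with all libraries (log2 -0.32 ± 0.12, adjusted p = 0.0551), was called by DESeq2 on the same libraries (-0.30, adjusted p = 0.0424), and was called in edgeR without M0 replicate 1 (-0.47 ± 0.04, adjusted p = 4.88e-16). Hsp90ab1, the constitutive HSP90 beta gene, fell in TAM (log2 -0.86 ± 0.10, adjusted p = 3.67e-05). The Hsp90aa1 level per kb was 0.266, 0.483 and 0.477 of that of Hsp90ab1 in M0, and 0.586, 0.549 and 0.606 in TAM. It was 0.414, 0.435 and 0.410 in M1 and 0.450, 0.468 and 0.466 in M2, so the TAM ratios were above all others.

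Hspb1 (chr5:135887919-135889563, plus strand) encodes the small heat shock protein HSP25 (HSP27 in humans), which holds unfolded proteins without using ATP and binds actin. It was low throughout, with 15 to 110 reads per library: 2.56, 0.939 and 0.958 CPM in M0, 2.87, 2.38 and 2.53 in M1, 1.44, 0.991 and 1.37 in M2, and 5.75, 4.88 and 5.37 in TAM. The TAM libraries were the highest, and M0 replicate 1 lay among the M1 values, at 2.70 times the other M0 libraries. Hspb1 rose 3.58-fold in TAM (log2 1.84 ± 0.32, adjusted p = 0.000755), the largest change of a member against M0; without M0 replicate 1 the log2 change was 2.48 ± 0.26 (adjusted p = 6.61e-12). In M1 the difference was 0.80 ± 0.33 (adjusted p = 0.101) with all libraries, and it was called without M0 replicate 1 (1.48 ± 0.29, adjusted p = 1.89e-05). Its promoter is shown as that of the member that rose most: the 250 bases at chr5:135887669-135887918, with 2-unit motifs in capitals beginning 117 and 97 bases before the start and no 3-unit motif.
Hspb1: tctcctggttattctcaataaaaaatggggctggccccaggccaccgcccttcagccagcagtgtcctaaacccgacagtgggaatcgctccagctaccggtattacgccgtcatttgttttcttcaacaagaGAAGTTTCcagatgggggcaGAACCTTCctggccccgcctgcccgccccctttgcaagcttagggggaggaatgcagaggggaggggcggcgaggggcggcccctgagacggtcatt

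**Figure D2:**
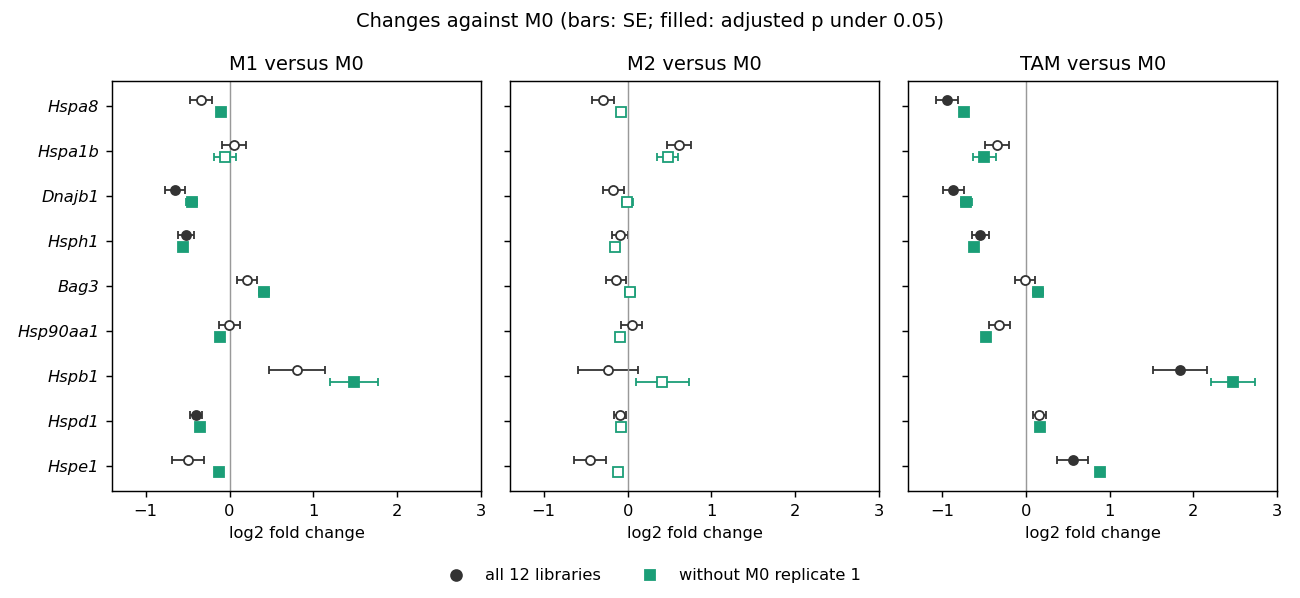
Log2 fold change of the 9 tested members against M0 in M1, M2 and TAM medium (linear axis of log2 values), with all 12 libraries (circles) and without M0 replicate 1 (squares). Bars are SE and filled symbols have an adjusted p under 0.05. No symbol is filled in M2, and Hspb1 in TAM lies farthest from 0, at 1.84 and 2.48.

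Hspd1 (chr1:55077835-55088243, minus strand) encodes HSP60, the chaperonin of the mitochondrial matrix. It was at 1653, 1591 and 1648 CPM in M0, 1242, 1270 and 1193 in M1, 1517, 1518 and 1552 in M2, and 1813, 1784 and 1887 in TAM. The 4 groups did not overlap and stood in the order TAM, M0, M2 and M1, and M0 replicate 1 was at 1.02 of the other M0 libraries. M0 and M2, neighbours in this order, did not differ by the test (log2 M2 minus M0 -0.09, 95% interval -0.24 to 0.05, adjusted p = 0.558). Hspd1 fell in M1 by 0.40 ± 0.07 on the log2 scale (adjusted p = 0.00272), a call that ended with no filter (-0.35, adjusted p = 0.0694) and in the 2-group fit (-0.36, adjusted p = 0.110). Without M0 replicate 1 Hspd1 was again called lower in M1 (-0.35 ± 0.04, adjusted p = 1.16e-11). In TAM it was 0.16 ± 0.07 above M0 (edgeR adjusted p = 0.0866), called by DESeq2 on all 12 libraries (0.18, adjusted p = 0.000679) and in edgeR without M0 replicate 1 (0.17 ± 0.04, adjusted p = 7.96e-05), and 1.48-fold above M1 (log2 0.57 ± 0.07, adjusted p = 0.000107).

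Hspe1 (chr1:55088132-55091307, plus strand) encodes HSP10, the lid of the HSP60 chamber. M0 libraries read 574.3, 320.5 and 331.0 CPM, M1 305.5, 284.0 and 281.5, M2 294.9, 286.5 and 316.0, and TAM 597.5, 610.9 and 598.8. TAM was the highest group, M0 replicate 1 was next below it, and the M1 and M2 libraries overlapped. The rise in TAM was 1.47-fold with all libraries (log2 0.56 ± 0.19, adjusted p = 0.0283) and larger without M0 replicate 1 (0.88 ± 0.04, adjusted p = 2.82e-24). This call ended on leaving out M0 replicate 2 (adjusted p = 0.0911), M0 replicate 3 (0.0934), TAM replicate 1 (0.0563), TAM replicate 2 (0.0629) or TAM replicate 3 (0.0587). Against M1 and M2, which do not include that library, TAM was 2.07-fold (adjusted p = 0.000985) and 2.01-fold (adjusted p = 0.00128) higher.

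Hspd1 and Hspe1 did not keep a fixed ratio, although they share the element stretch printed above. The level of Hspe1 per kb relative to Hspd1 was 0.623, 0.361 and 0.360 in M0, 0.441, 0.401 and 0.423 in M1, 0.348, 0.338 and 0.365 in M2, and 0.591, 0.614 and 0.569 in TAM. TAM was above M1, M2 and M0 replicates 2 and 3, and M0 replicate 1 was above all 3 TAM libraries. The gene models overlap by 112 bases on opposite strands, and since strand use is not given, reads there cannot be told apart. Hspa9, the mitochondrial HSP70 that draws proteins into the matrix, rose from 671 ± 47.0 CPM in M0 to 2078 ± 50.4 in TAM (log2 1.63 ± 0.10, adjusted p = 2.53e-07). Hspd1 per kb was 3.73 to 4.11 times Hspa9 in M0, 2.53 to 2.93 times in M1, 3.56 to 4.08 times in M2 and 1.43 to 1.44 times in TAM. M1 was thus also below M0.

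**Figure D3:**
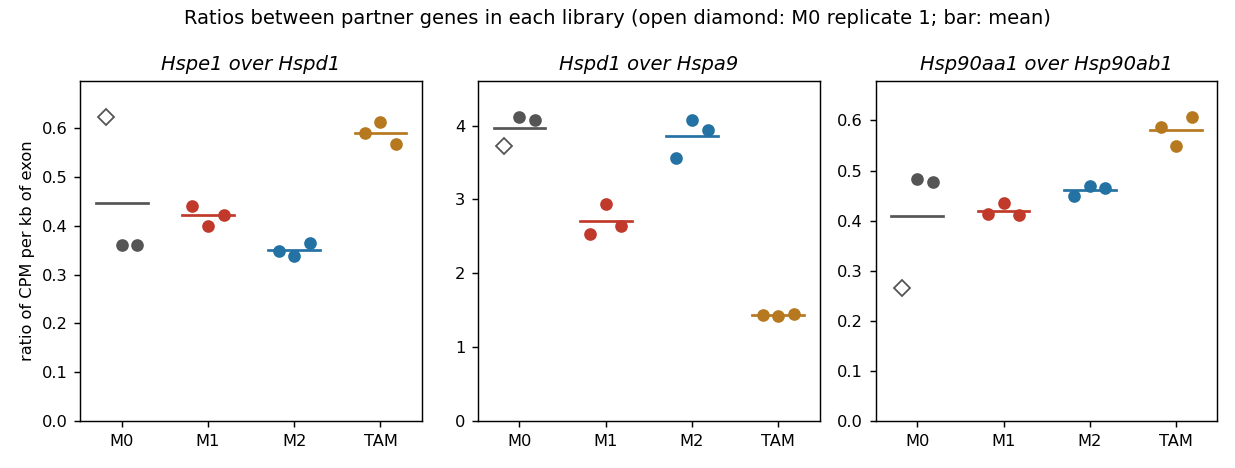
Ratios of CPM per kb of exon between partner genes in each library (linear axes from 0): Hspe1 over Hspd1, Hspd1 over Hspa9 and Hsp90aa1 over Hsp90ab1, by medium. Points are libraries, the open diamond is M0 replicate 1 and bars are means (n = 3). Hspd1 over Hspa9 was 1.43 to 1.44 in TAM, 2.53 to 2.93 in M1, 3.56 to 4.08 in M2 and 3.73 to 4.11 in M0.

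TAM was also set against the cytokine groups, where leaving out M0 replicate 1 changes the filter, the scaling and the shared estimate of spread. Against M2, 3 members were higher (Hspb1, Hspe1 and Hspd1) and 5 lower (Hspa1b, Dnajb1, Hspa8, Hsph1 and Hsp90aa1), against 20.7% of genes higher, 22.6% lower and 43.2% either. Bag3 joined the higher members without M0 replicate 1 (log2 0.12, adjusted p = 0.0363), and the genes called were then 34.2%, 35.3% and 69.5%. The Hsp90aa1 call (log2 -0.36 ± 0.12, adjusted p = 0.0357) was lost without any one of the M2 or TAM libraries or M1 replicates 1 or 3 (adjusted p 0.0506 to 0.105). It was also lost with no filter (adjusted p = 0.0630) and was kept without M0 replicate 1 (-0.38 ± 0.03, adjusted p = 3.00e-14). The Hspd1 call (0.26 ± 0.07, adjusted p = 0.0159) was lost without any one of the M2 libraries or TAM replicates 1 or 3 (0.0523 to 0.0807), and with no filter (0.22, adjusted p = 0.228). Without M0 replicate 1 the Hspd1 call was kept (0.25 ± 0.03, adjusted p = 4.96e-09).

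Against M1, 3 members were higher in TAM (Hspe1, Hspb1 and Hspd1) and 2 lower (Hspa8 and Hspa1b), while of all genes 19.8% were higher, 23.3% lower and 43% either. Without M0 replicate 1 there were 3 higher and 5 lower, against 32.4%, 37.7% and 70.1%. Hspa8 was 1.51-fold lower (log2 -0.60 ± 0.13, adjusted p = 0.00408). The Hspa1b call (-0.39 ± 0.14, adjusted p = 0.0476) was lost without any one library of M1, M2 or TAM (adjusted p 0.0592 to 0.148), and with no filter (0.0658). The Hspb1 call (1.04 ± 0.31, adjusted p = 0.0176) was lost without M1 replicate 2 (0.0650), M1 replicate 3 (0.0606), TAM replicate 1 (0.0632) or TAM replicate 3 (0.0535). Without M0 replicate 1 the calls of Hspa1b (-0.44, adjusted p = 0.00126) and Hspb1 (0.99, adjusted p = 9.11e-06) were kept.

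Between the cytokine groups, edgeR called Hspa1b, Hsph1, Dnajb1 and Hspd1 lower in M1 than in M2 and 0 members higher, against 7.5% of genes lower, 9.72% higher and 17.2% either. DESeq2 on all 12 libraries also called Hspb1 (1.06, adjusted p = 0.0144) and Bag3 (0.38, adjusted p = 0.0235) higher. In edgeR without M0 replicate 1 there were 4 lower and the same 2 higher, against 23.5%, 24.8% and 48.3%. Hsph1 differed by -0.43 ± 0.10 on the log2 scale (adjusted p = 0.0100) and lost its call without M1 replicate 1 (0.0659). Hspa1b differed by -0.57 ± 0.14 (adjusted p = 0.0175), Dnajb1 by -0.48 ± 0.12 (0.0204) and Hspd1 by -0.31 ± 0.07 (0.0148). Leaving out any one library of M1 or M2 ended the Dnajb1 call (adjusted p 0.0515 to 0.101). The Hspa1b call ended without any one of these except M1 replicate 3 (0.0508 to 0.0856), and the Hspd1 call without any one except M1 replicate 2 (0.0557 to 0.0874). Without M0 replicate 1 the calls of Hspa1b (adjusted p = 6.14e-05), Dnajb1 (8.40e-09), Hspd1 (5.99e-10) and Hsph1 (3.73e-11) were kept. Comparisons with M0, M1 or M2 share libraries, so their values are given side by side and not as support for each other.

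The rest of the chaperone system was read from lists of related genes. Of 16 tested genes for HSP90 beta and HSP90 cochaperones, 10 fell and 2 rose in TAM against M0, with a median log2 change of -0.39 against -0.02 over all genes. Over all genes 27.2% fell and 23.3% rose (33.7% and 33% without M0 replicate 1), and the counts of this and the next lists stand against those shares. Among them Fkbp4, an immunophilin of steroid receptor complexes, fell by 1.33 ± 0.17 on the log2 scale (adjusted p = 9.24e-05), and Ahsa1, which stimulates the HSP90 ATPase, fell by 1.03 ± 0.19 (adjusted p = 0.000933). Both falls were enlarged by M0 replicate 1. Fkbp4 was at 1706, 1027 and 1016 CPM in M0 and 487, 511 and 494 in TAM. Ahsa1 was at 306.9, 172.6 and 174.9 CPM in M0 and 106.5, 107.2 and 106.6 in TAM. Chordc1 rose by 0.52, and by 0.33 without M0 replicate 1. These counts became 12 lower and 4 higher of 16 without M0 replicate 1. Of 11 other cytosolic J-domain genes 4 rose, Dnajc5 (log2 0.69) and Dnajb4 (0.54) among them, and 3 fell, Dnaja1 (-0.87) among them; without M0 replicate 1 the counts were 6 and 3. Of 6 other nucleotide exchange factors 0 rose and 3 fell: Bag2 (-1.17), Hspbp1 (-1.27) and Bag1 (-0.64). Without M0 replicate 1, 4 of these fell, Hspbp1 by 0.82 and Bag1 by 0.24, and Bag1 in M0 was at 283.1, 144.3 and 144.0 CPM against 126.8, 122.4 and 118.4 in TAM.

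Of 6 other HSP70 and HSP110 genes, Hspa4 rose (log2 0.30) and Hspa12b (-1.82) and Hspa14 (-1.10) fell, with 1 higher and 3 lower without M0 replicate 1. Among 5 tested small heat shock genes besides Hspb1, Hspb7 rose (1.86) and Cryab, the alpha B crystallin gene, fell (-1.45), so the rise of Hspb1 was not shared by all of them; without M0 replicate 1, 3 rose and 1 fell. Of 16 other mitochondrial chaperones and proteases 4 rose, including Hspa9, its J-domain partner Dnaja3 (0.78) and the matrix protease Lonp1 (0.95), and 3 fell, including Dnajc19 (-1.07); without M0 replicate 1, 8 rose and 4 fell. Of 14 subunits of the cytosolic chaperonin CCT and prefoldin 2 rose and 6 fell, Tcp1 (-0.73) and Cct3 (-0.60) among the latter, and without M0 replicate 1 these were 5 and 7. The 4 tested genes of the heat shock factor list were Hsf1, Hsf2, Hsf4 and Hsbp1, the last for a heat shock factor binding protein. Of these 0 rose and Hsf4 fell (-0.99). Without M0 replicate 1 Hsf4 (-0.63) and Hsf2 (-0.31, adjusted p = 0.000140) fell. Hsf1 was called in neither fit, at 115.5, 77.2 and 74.0 CPM in M0 and 72.5, 73.0 and 64.3 in TAM. Of 12 other heat shock target genes, some of them also in the lists above, 2 rose in TAM and 5 fell. Ier5 (1.95) and Chordc1 rose, and Cacybp (-0.86) was among those that fell. Without M0 replicate 1, 5 rose and 6 fell. In M2 against M0, edgeR called 0 genes of these lists, with all 12 libraries and without M0 replicate 1.

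**Figure D4:**
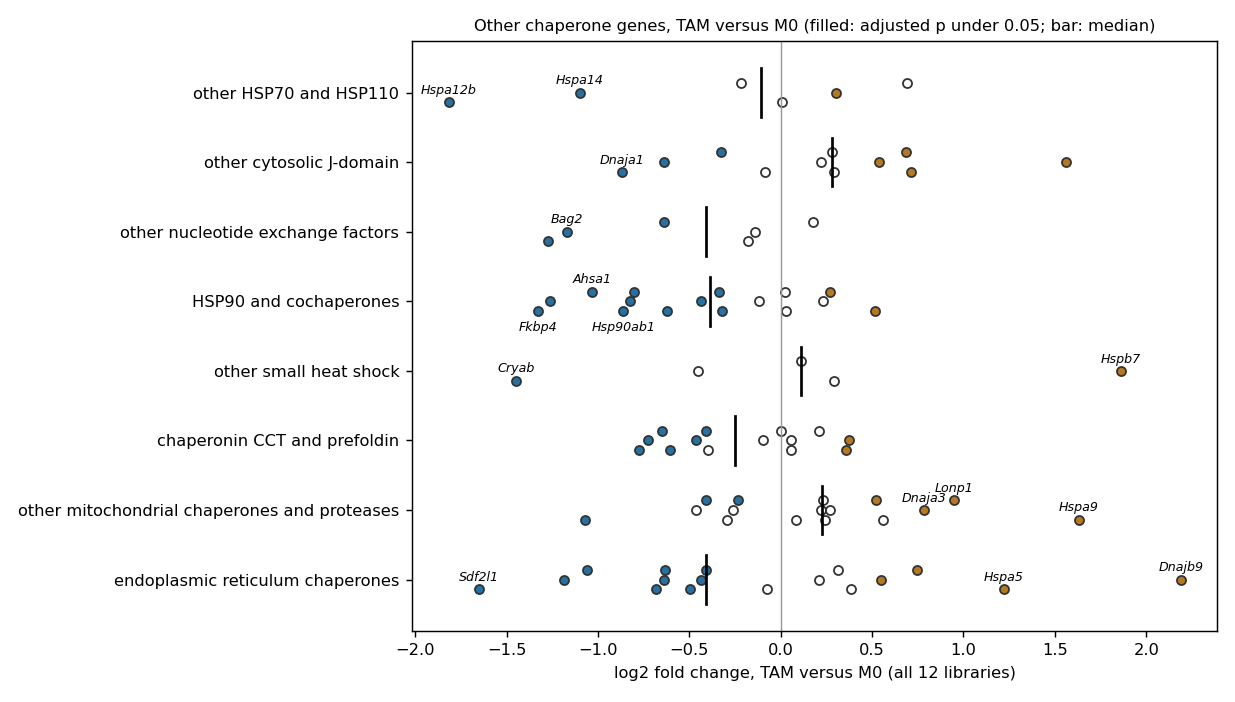
Log2 fold change in TAM against M0 (all 12 libraries, linear axis of log2 values) of other chaperone genes, grouped by list. Each point is 1 gene, filled where the adjusted p was under 0.05, and the bar is the list's median. Of the HSP90 and cochaperone genes 10 of 16 are filled to the left of 0, and Hspa9 lies at 1.63 in the mitochondrial list.

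Several members share sequence with processed copies elsewhere in the genome. Of the coding 50-base stretches, 90.7% of Hspa8, 85.42% of Hsp90aa1, 97.72% of Hspb1, 63.54% of Hspd1 and 74.62% of Hspe1 occur in another annotated gene, but 0 of Hsph1, Bag3 and Dnajb1. The copies held few counts: 1.76% of the sum of Hspa8 and its copies, 1.19% for Hsp90aa1, 1.83% for Hspd1, 1.37% for Hspe1 and 0 for Hspb1. Adding them moved the ratio of mean CPM in TAM to M0 from 0.523 to 0.521 for Hspa8 and from 1.47 to 1.48 for Hspe1. Reads that map to several places may have been dropped from genes and copies alike. These sums cover counted reads only and cannot show whether shared sequence affected the levels.

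Genes with the most similar pattern were ranked by the root mean square difference of centred log2 group means over the 4 groups. Only tested protein-coding genes were ranked, without predicted Gm or Rik names and without names marked as pseudogenes or related sequences. For Hspa8 the nearest were B3galt4 (0.0154), Rpl15 (0.0162) and Ubac2 (0.0177), and for Hspd1 Lbhd1 (0.0172), Timm21 (0.0194) and Lrrn4cl (0.0206). The 3 nearest to Hspa1b were Slc16a4 (0.0240), Fndc3c1 (0.0268) and Man2a1 (0.0480). Without M0 replicate 1 the nearest to Hspa8 were Ubac2, Echdc1 and Ints10, those to Hspd1 Dido1, Arid2 and Mrpl20, and those to Hspa1b Sh2d3c, Slc16a4 and Naaladl1.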

How the data were processed

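The authors deposited raw read counts as 1 table of whole numbers for 12 libraries. HISAT2 2.0 and mm10 are named per the submitters' processing notes. Counter and strand setting: not given in the sources used here. Symbols, coordinates and merged exon lengths came from GENCODE release M21, which held 55227 of the 55487 identifiers. The members and gene lists were chosen with earlier results of these data known. Genes were filtered with filterByExpr, normalised by TMM and tested in 6 comparisons in 1 edgeR quasi-likelihood model over all 4 groups (R 4.3.3, edgeR 4.0.16), with Benjamini-Hochberg adjustment over all 14591 genes (14968 without M0 replicate 1). CPM used TMM-scaled totals of the tested genes. The steps were tested on simulated data. Lists are described by counts and medians, without a set test. Listed genes named were drawn from the 3 of lowest adjusted p in each direction, among those with a mean of at least 1 CPM. Not all of these are named, and Hsf2 was named from the fit without M0 replicate 1. Alternatives were RLE size factors, DESeq2 1.42.0, no filter, fits to 2 groups, a replicate block and each library left out; RLE and DESeq2 without M0 replicate 1 were added after seeing the data. The genes nearest in pattern to Hsp90aa1 are not reported here.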

Additional observations from a re-analysis of the deposited data

How the results depend on the processing

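Counts of calls depended on the libraries and on the fit. Genes called without one library ranged from 2287 to 7056 for M1 versus M0, 0 to 51 for M2 versus M0, 6107 to 9983 for TAM versus M0, 5176 to 10489 for TAM versus M1, 5205 to 10407 for TAM versus M2 and 1686 to 7233 for M1 versus M2. Members called ranged over 3 to 8, 0 to 0, 4 to 9, 3 to 8, 6 to 9 and 0 to 6. With M0 replicate 1 left out, DESeq2 and RLE size factors called 6536 and 7142 genes (M1 versus M0), 45 and 50 (M2 versus M0), 10041 and 10525 (TAM versus M1), 9979 and 10420 (TAM versus M2) and 6716 and 7285 (M1 versus M2), and 8 and 8, 9 and 9 (TAM versus M0, beside 4791 and 5062 genes higher and 4740 and 4929 lower) and 8 and 8 (TAM versus M1) members. DESeq2 on all libraries called 7 genes in M2 versus M0. Fits to 2 groups called 1282 genes and 0 members for M1 versus M0, 4619 genes for TAM versus M0, 10301 genes and 8 members for TAM versus M1, 10182 genes for TAM versus M2 and 6952 for M1 versus M2. With no filter 0 members were called for M1 versus M2, beside 1313 genes higher and 629 lower of 27593. The share of calls that were higher was 47.5% for M1 versus M0, 58.8% with no filter and 69.5% in the 2-group fit, and for M1 versus M2 56.4% and, with no filter, 67.6%. The cause of these shifts was not tested.

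Some differences that edgeR did not call with all 12 libraries changed sign, and not all of these were near 0. For Bag3, M2 versus M0 became 0.0249 (DESeq2) and 0.0246 (RLE) without M0 replicate 1. Bag3 in TAM versus M0 became 0.000308 (DESeq2) and 0.000315 (RLE). Without M0 replicate 1 it became 0.16 (DESeq2, adjusted p = 0.0221) and 0.16 (RLE, adjusted p = 0.0119), and both were called. For Hsp90aa1, M1 versus M0 became 0.0193 (DESeq2 and RLE), 0.0429 (no filter), 0.0371 (2 groups) and 0.00575 (replicate block), and M2 versus M0 became -0.10 in DESeq2 and RLE without M0 replicate 1. In these, Hspa1b M1 versus M0 became -0.0708 and -0.0704 and Hspb1 M2 versus M0 0.41. Without one library, signs changed within -0.23 to 0.0281 (Bag3, M2 versus M0), -0.11 to 0.15 (Bag3, TAM versus M0), -0.12 to 0.0835 (Hsp90aa1, M1 versus M0), -0.0942 to 0.13 (Hsp90aa1, M2 versus M0), -0.0561 to 0.14 (Hspa1b, M1 versus M0), -0.49 to 0.41 (Hspb1, M2 versus M0), -0.0732 to 0.00340 (Hspe1, M1 versus M2) and -0.0979 to 0.0198 (Hsph1, TAM versus M1).

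No pairing by replicate number was seen: deviations of same-numbered libraries from their group means correlated at -0.13 to 0.16. With 3 libraries per group, and M0 replicate 1 far from its group, these values cannot exclude pairing. With the replicate number as a block, 3156 genes and 3 members were called for M1 versus M0, 7071 and 5 for TAM versus M0, 5988 and 4 for TAM versus M1, 6040 and 8 for TAM versus M2, and 2172 and 5 for M1 versus M2. The block ended the Hspa1b call in TAM versus M1 (-0.39, adjusted p = 0.0629) and added Hspb1 in M1 versus M2 (1.04, adjusted p = 0.0425). Depth limits Hspb1 most, at 15 to 110 reads per library, and Hspa1a could not be tested.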

Other observations

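In M1 medium the chaperones of the endoplasmic reticulum, the entry to the secretory pathway, included 9 of 17 tested genes lower than in M0 and 0 higher (median log2 change -0.39, against -0.02 over all genes, of which 13.5% were lower and 12.2% higher). Calr, a calcium-binding chaperone of glycoproteins, fell by 0.59 ± 0.11 on the log2 scale (edgeR adjusted p = 0.00318). Hsp90b1, the HSP90 of this compartment, fell by 0.48 ± 0.10 (adjusted p = 0.00498), and the disulfide isomerase gene P4hb fell by 0.44 ± 0.10 (adjusted p = 0.00665). In TAM medium 4 of the 17 rose and 9 fell, against 23.3% and 27.2% of all genes. Hspa5, the HSP70 of this compartment, rose by 1.22 ± 0.08 (adjusted p = 7.77e-07), while its cytosolic relative Hspa8 fell in the same comparison. Dnajb9 (log2 2.19) and Hyou1 (0.55) also rose, and Pdia4 (-1.19), Sdf2l1 (-1.65) and Pdia3 (-0.64) were among the genes that fell. Without M0 replicate 1 the counts were 13 lower and 0 higher in M1, against 22.9% and 24.3% of all genes, and 10 lower and 6 higher in TAM, against 33.7% and 33%.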
